A study of Mus musculus with 154 samples.

Results

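Liver is mostly hepatocytes by mass, so a change in a whole-liver RNA library can come from hepatocytes or from the smaller populations around them. Here 36 genes that mark those populations were followed across the livers of 24 mouse strains: 12 genes of Kupffer cells and other macrophages, 10 of endothelial cells, 10 of hepatic stellate and other mesenchymal cells, and 4 of bile duct cells. The genes were listed by name and matched by symbol to the Ensembl identifiers of the count table, which held 35 of the 36 among its 13289 genes. Krt19, a keratin of bile duct cells, was not analysed here. The genes that carried most of the differences below were, with their GRCm38 coordinates, Clec4f (ENSMUSG00000014542, chr6:83644542-83656187), Marco (ENSMUSG00000026390, chr1:120474538-120505024), Clec4g (ENSMUSG00000074491, chr8:3707064-3720651), Fcgr2b (ENSMUSG00000026656, chr1:170958617-170976547), Lrat (ENSMUSG00000028003, chr3:82892579-82903973), Hgf (ENSMUSG00000028864, chr5:16553495-16620152), Col1a1 (ENSMUSG00000001506, chr11:94936224-94953042), Col1a2 (ENSMUSG00000029661, chr6:4504814-4541544) and Col3a1 (ENSMUSG00000026043, chr1:45311538-45349706). Reads were counted over all exons of a gene.

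The RNA came from the caudate lobe of the liver of 154 male mice killed at 5 weeks of age after a night without food. B6, the inbred strain C57BL/6J, was the control (20 mice). In a chromosome substitution strain (CSS) 1 B6 chromosome pair is replaced by that of the A/J strain, and every CSS mouse here was an F1 animal, so each A/J chromosome stood opposite a B6 chromosome and effects of A/J alleles show only where they are dominant or partly dominant. There were 8 single CSSs, written A3, A4, A5, A6, A8, A10, A14 and A17 after the substituted chromosome (8 mice each, 7 for A5). There were 15 double CSSs with 3 to 6 mice each, written with the chromosome from the dam first: the dams gave 3, 6, 14 or 17 and the sires 4, 5, 8 or 10, and A3:A4 was not analysed here. A substitution carries every variant of a chromosome, so none of the values below points to a gene within it. Mice of a strain came from several breeding cages. All groups share the B6 background, the sex, the age and the fast.

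Kupffer cells are the resident macrophages of the liver sinusoid, the capillary of the liver lobule, where they take up particles, bacteria and old red cells through scavenger and complement receptors. Sinusoidal endothelial cells form the wall of that capillary; they are fenestrated, lack a basement membrane and clear waste molecules through receptors such as the stabilins. Stellate cells lie between the endothelium and the hepatocytes, store vitamin A as retinyl esters, and are the main source of collagen when the liver scars. Bile duct cells line the ducts that drain bile. In bulk liver RNA, more cells of a type and more marker RNA per cell cannot be told apart.

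The libraries held 4638701 to 30465477 counted reads (median 16116424), and 32 of the 35 marker genes had at least 15 reads in every mouse. The exceptions were Des, with 15 reads in 147 mice, Sox9 in 149 and Epcam in 105. One mouse of A14:A4, like all others labelled male, had 3.23 CPM (counts per 1000000 counted reads) summed over 4 Y-linked genes, against 192 to 477 in the others, and results on A14:A4 are given with and without it. Among B6 mice, 2 stood apart for Marco, as described below.

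In B6 the Kupffer markers were plentiful. Levels per kilobase of exon set genes side by side only roughly, since the length took in all annotated exons of every transcript (18313 bases for Ptprc). On that scale Cd5l, a secreted macrophage protein, was highest (58.2 CPM per kb), followed by Clec4f, a lectin that in mice is restricted to Kupffer cells (40.3). Next came C1qa, C1qb and C1qc, which encode the 3 chains of complement C1q (36.1, 35.3 and 19.7). Vsig4, a complement receptor, reached 21.7 and the scavenger receptor Marco 15.4. Csf1r, the receptor for the growth factor on which macrophages depend, was at 11.1, Adgre1, which encodes F4/80, at 8.66, the lysosomal protein gene Cd68 at 5.21 and Timd4, a phosphatidylserine receptor, at 4.03. Ptprc, which encodes CD45 of all leukocytes, was at 1.18. In CPM, Clec4f stood at 99.6 ± 11.02 CPM (SD, n = 20), and all 12 Kupffer markers were detected in every mouse.

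Among endothelial genes the lectin Clec4g was highest per length in B6 (17.6 CPM per kb), then Lyve1, a hyaluronan receptor (14.004), the scavenger receptor Stab2 (10.3), Kdr, which encodes VEGF receptor 2 (8.37), the TGF-beta co-receptor Eng (7.98), the cadherin Cdh5 (7.01), the inhibitory Fc receptor Fcgr2b (5.90), Stab1 (5.53), the adhesion molecule Pecam1 (4.52) and the angiopoietin receptor Tek (4.20). Of the stellate genes, the proteoglycan Dcn (31.6) and the matrix protein Ecm1 (16.3) led, ahead of Col3a1 (8.75), Hgf, the hepatocyte growth factor (4.89), Lrat, which esterifies retinol (4.38), the secreted protein gene Reln (3.46), Col1a2 (1.74), the PDGF receptor Pdgfrb (1.39), Col1a1 (1.09) and Des, an intermediate filament (0.609). Bile duct markers were low: Sox9, a transcription factor of ducts, stood at 0.697 and the surface protein gene Epcam at 0.553, while Spp1, which encodes osteopontin and is also made by other cells, stood at 18.6.

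The markers differed in how much they varied among the 20 genetically identical B6 mice. Stab2 had a coefficient of variation of 7.96%, Vsig4 9.51% and Clec4f 11.1%. Marco varied most, at 74.3%, with the lowest, median and highest mouse at 10.04, 22.99 and 104 CPM. The highest 2, at 74.0 and 104 CPM, lay above every other B6 mouse. Col1a1 followed at 49.3%.

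How far the markers of a class varied together from mouse to mouse, apart from strain differences, was seen by subtracting each strain's mean from log2 CPM. Over all 154 mice the 66 pairs of Kupffer markers had a median Pearson's r of 0.671 (0.273 to 0.897). C1qa and C1qb correlated at 0.858, Clec4f and Cd5l at 0.754, and the lowest of the 66 was Clec4f with Marco. Stellate pairs had a median of 0.289, with a tight group of the 3 collagens (0.858 for Col1a1 and Col1a2, 0.794 for Col1a1 and Col3a1). Endothelial pairs had a median of only 0.127 and ran from −0.417, for Lyve1 with Clec4g, to 0.613, for Stab2 with Kdr. Within that class the 10 pairs among Stab1, Stab2, Kdr, Eng and Cdh5 lay at 0.366 to 0.613, a group seen only after the values were known. It was not particular to the class, since endothelial genes with stellate genes ran from −0.221 to 0.621. The highest of these was Eng with Ecm1, and Stab2 with Reln stood at 0.568. Pairs of the 3 bile duct genes had a median of 0.0606. Between classes the medians were 0.067 to 0.195, and Kupffer markers had a median of −0.00623 with all genes of the table. These are descriptions over libraries that also share depth and sample quality. No test was made of the class medians and ranges. Over all 154 mice, permutation tests were made only for the pairs that were also tested within B6, as described next.

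**Figure D1:**
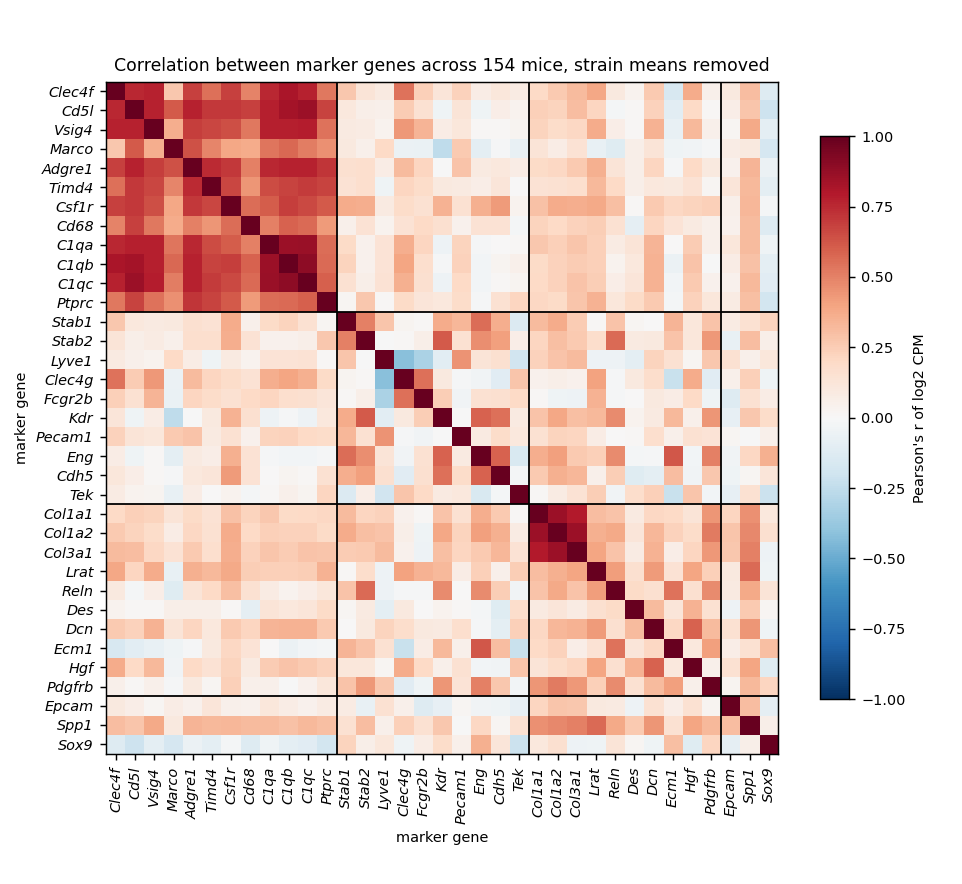
Pearson's r of log2 CPM for each pair of the 35 marker genes (both axes, in the order Kupffer, endothelial, stellate, bile duct, separated by black lines) over 154 mice after each strain's mean was subtracted, from blue (negative) to red (positive). The Kupffer genes form 1 block with a median of 0.671, the 3 collagens a small block, and 5 endothelial genes (Stab1, Stab2, Kdr, Eng and Cdh5) a looser one of 0.366 to 0.613. Endothelial genes with stellate genes reach 0.621.

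Within the 20 B6 mice alone, 9 pairs were tested by permutation. C1qa with C1qb (r = 0.817, rho = 0.756, permutation p = 2.0e-05, adjusted p = 9.0e-05 for r and 0.00108 for rho) and Col1a1 with Col3a1 (r = 0.870, rho = 0.789, permutation p = 1.0e-05, the smallest the 100000 resamples can give, adjusted p = 9.0e-05 for r and 0.00090 for rho) passed the adjustment, and r without the 2 mice farthest from the median of the first gene was 0.809 and 0.759. The remaining pairs did not pass by r, among them C1qa with Clec4f (r = 0.498, rho = 0.462, adjusted permutation p = 0.0705 and 0.0943), Stab1 with Stab2 (r = 0.146, rho = 0.146, adjusted permutation p = 0.612 and 0.536) and Clec4f with Stab2 (r = −0.480, rho = −0.346, adjusted permutation p = 0.0705 and 0.203). Scaled to the total count instead of by TMM, the trimmed mean of M values that sets library sizes below, 7 of the 9 pairs passed. Clec4f with Stab2 then had the opposite sign (r = 0.205), and Stab1 with Stab2 rose to r = 0.515.

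Strain differences were tested with a model fitted to all genes at once, by edgeR's quasi-likelihood test. It held 8 substitution effects, 15 interactions and 5 surrogate variables. Surrogate variables are patterns of variation among libraries, estimated with the strains in the model, and they can still overlap with strain differences. FDR is the Benjamini-Hochberg adjusted p and 0.05 its threshold. In A17, 1717 genes other than the markers passed with no covariate and 484 with 5 surrogate variables. Levels are given as CPM before the surrogate variables are taken out. Fold changes are log2 ± standard error from the model after they are taken out, so the 2 can differ. In A8 the 12 Kupffer genes averaged 5.07 log2 CPM, against 4.99 in B6, while their median fold change in the model was −0.08. In the joint test of all strains 24 of the 35 markers differed (68.6%), against 51.4% of all genes. By class these were 7 of 12 Kupffer, 9 of 10 endothelial, 7 of 10 stellate and 1 of 3 bile duct genes. The smallest FDRs belonged to Clec4f (6.27e-09) and Clec4g (3.28e-07). Cd68 (FDR = 0.659), Ptprc (0.647), C1qc (0.244), Cd5l (0.111) and Csf1r (0.0989) did not pass, nor did Stab1, Dcn, Ecm1, Pdgfrb, Epcam and Sox9.

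The spread of strain means was modest. The highest mean over the lowest was 1.21 for Pecam1, 1.28 for Csf1r, 1.39 for Clec4f and 1.67 for Clec4g. The widest were Marco, at 3.07 between B6 and A14:A5, Epcam at 2.38, Col1a1 at 2.28, Spp1 at 2.21 and Col3a1 at 2.02. Of the 12 Kupffer genes, 6 had their lowest mean in A3:A8, the group of 3 mice, among them all 3 C1q genes (C1qa 30.9 against 37.5 ± 4.55 CPM (SD, n = 20) in B6).

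Do the markers of a class move as one when a chromosome is substituted? Over the 8 substitutions, 38 of the 280 marker tests passed (13.6%), 25 higher and 13 lower than B6, against 11.1% of tests over all genes (5.32% higher and 5.74% lower). A8 and A14 each gave 10 of these calls (28.6% of markers; 29.6% and 22.5% of all genes), A4 7 (13.5% of all genes), A17 4 (3.67%), A6 3 (8.09%), A10 3 (6.64%), A5 1 (0.768%) and A3 none (3.7%). In A3, 6 markers had an unadjusted p under 0.05. In A8 and A6 the share of markers called lay near that of all genes. It was higher in A14, A4 (20%), A17 (11.4%), A10 (8.57%) and A5 (2.86%) and lower in A3. Since 1 call is 2.86% of the 35 markers, these gaps amount to few genes, and they were not tested. All 8 comparisons share the same 20 B6 mice.

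**Figure D2:**
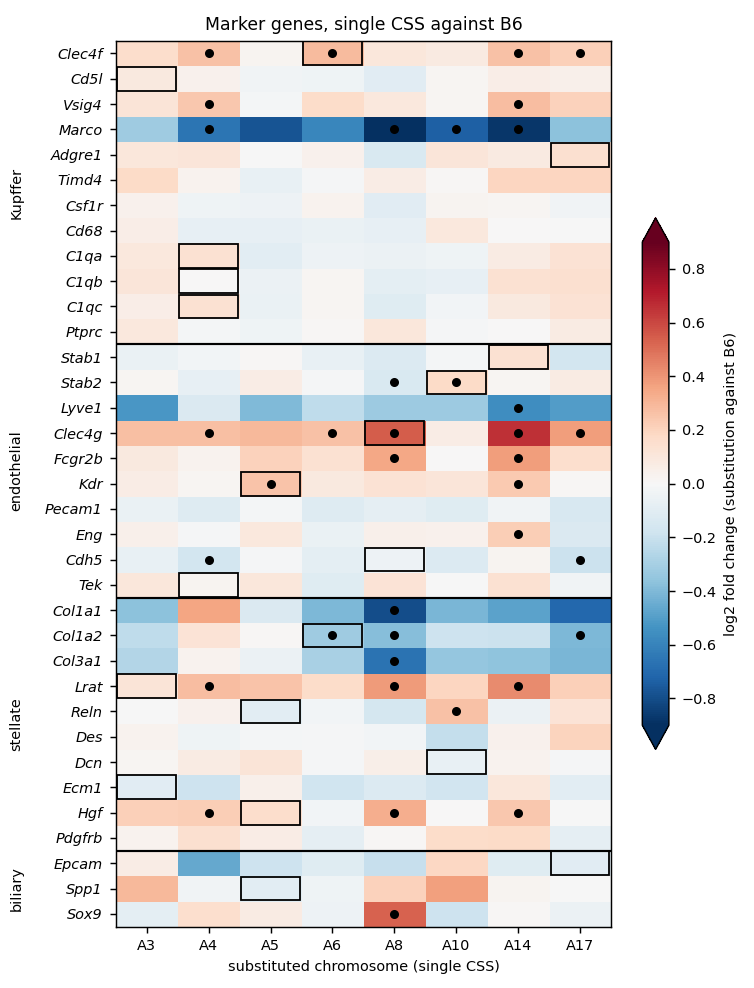
Log2 fold change of each of the 35 marker genes (rows, by class) in the 8 single CSSs against B6 (columns), red higher and blue lower. Dots mark an FDR under 0.05 and boxes mark genes that lie on the substituted chromosome. Dots fall on Clec4f, Marco, Clec4g, Lrat, Hgf and the collagens, while the rows from Adgre1 to Ptprc have none.

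Within the Kupffer class, 3 of the 12 genes carried all 10 calls, in opposite directions. Clec4f was higher in A4, A6, A14 and A17. Its lowest, median and highest mouse stood at 75.3, 99.2 and 116.2 CPM in B6, 106, 130.5 and 140.1 in A6 and 96.2, 123 and 154 in A14, so the groups overlapped, with the median of A6 above the highest B6 mouse. The fold changes were 0.28 ± 0.06, FDR = 0.000166 in A6, 0.27 ± 0.06, FDR = 0.00167 in A4, 0.26 ± 0.06, FDR = 0.000903 in A14 and 0.21 ± 0.06, FDR = 0.0409 in A17. Clec4f lies on chromosome 6, so the A6 value is a cis comparison. Vsig4 was higher in A14 (0.28 ± 0.07, FDR = 0.00314) and A4 (0.25 ± 0.07, FDR = 0.0155).

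Marco went the other way. Its mean was highest in B6 of all 24 strains, 29.6 ± 21.95 CPM (SD, n = 20), a rank that rests on 1 mouse: without B6 replicate 14 the B6 mean was 25.7 ± 13.7 CPM (SD, n = 19), below those of A3:A10 (27.5) and A14:A10 (27.2). Across the single CSSs the mean ran from 15.5 CPM in A5 to 24.5 in A17. The lowest, median and highest mouse were 9.85, 16.02 and 34.9 CPM in A8 and 15.5, 16.9 and 24.2 in A14, so that all A14 mice lay within the B6 range and all A8 mice but the lowest did. Marco was lower in A8 (−1.18 ± 0.25, FDR = 8.66e-05), A14 (−0.88 ± 0.23, FDR = 0.00228), A10 (−0.73 ± 0.23, FDR = 0.0385) and A4 (−0.66 ± 0.23, FDR = 0.0380). Without B6 replicate 14, the highest of the B6 mice, A10 and A4 no longer passed (FDR = 0.111 and 0.102), while A8 (FDR = 0.000513) and A14 (FDR = 0.0118) did. Leaving out each B6 mouse in turn moved the A10 value between −0.78 and −0.55 and the A4 value between −0.71 and −0.50.

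The remaining 9 Kupffer genes had no call in any substitution. Their estimates ran from −0.13 for Adgre1 to 0.20 for Timd4, and those of C1qa from −0.09 to 0.13. In A4, where they lie on the substituted chromosome, the 3 C1q genes had values of 0.13 ± 0.06, FDR = 0.0916 (C1qa), 0.00 ± 0.06, FDR = 0.985 (C1qb) and 0.13 ± 0.07, FDR = 0.125 (C1qc). Adgre1 in A17 (0.15 ± 0.10, FDR = 0.331) and Cd5l in A3 (0.09 ± 0.08, FDR = 0.525) are the other cis Kupffer values. In A14 the 12 Kupffer genes had a median of 0.08, against −0.01 for all genes.

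**Figure D3:**
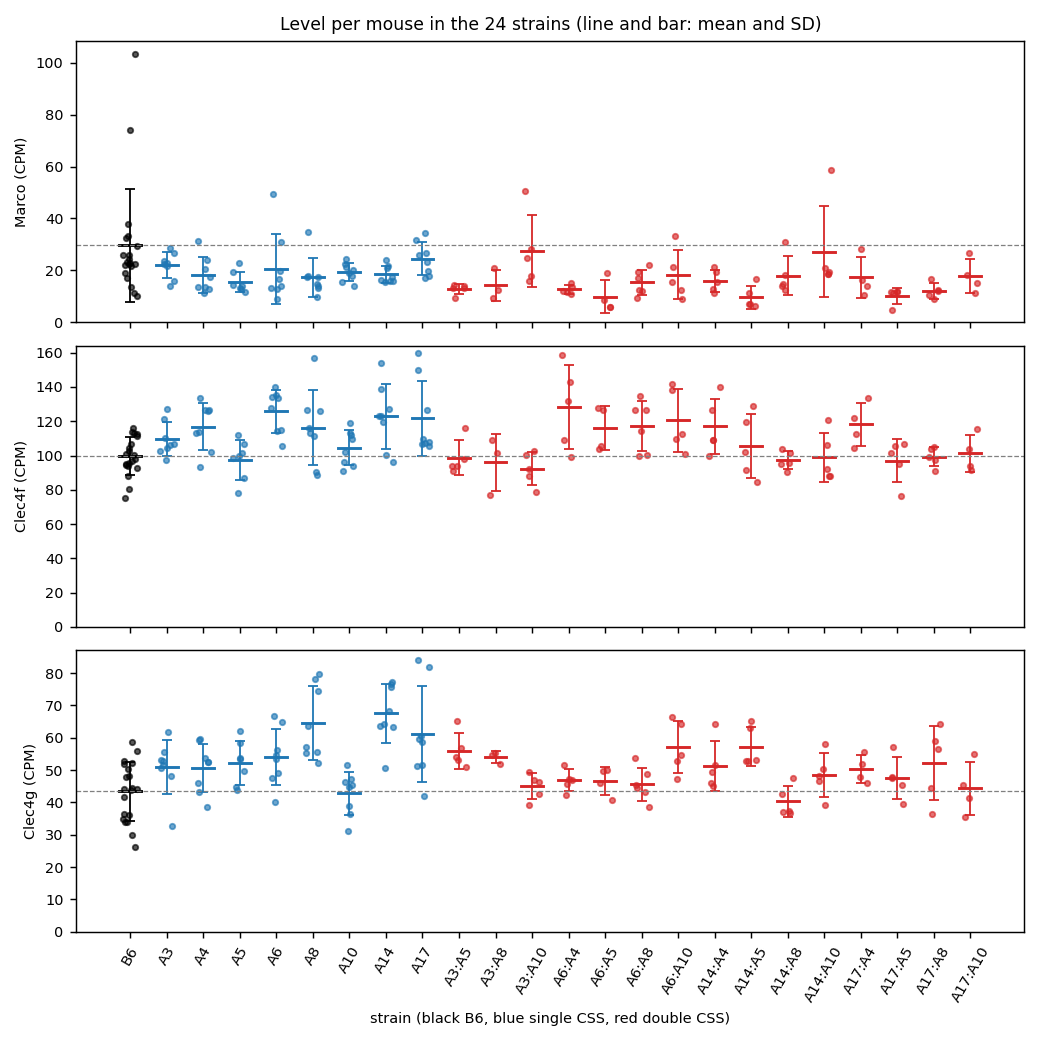
CPM of Marco, Clec4f (Kupffer) and Clec4g (endothelial) in each mouse (points) of the 24 strains (x axis: black B6, blue single CSS, red double CSS), with strain mean and SD; the dashed line is the B6 mean and all axes start at 0. Every strain mean of Marco lies under that of B6, in which 2 mice reach 74.0 and 104 CPM; without the highest, A3:A10 and A14:A10 lie above B6.

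Of the endothelial genes, Clec4g had the most calls, higher in 5 of 8 substitutions. Its lowest, median and highest mouse were 26.3, 44.1 and 58.7 CPM in B6, 50.5, 66.3 and 77.3 in A14 and 52.2, 60.5 and 79.8 in A8, where the lowest mouse lay above the B6 median. The fold changes were 0.66 ± 0.09, FDR = 6.04e-08 in A14, 0.54 ± 0.10, FDR = 3.88e-06 in A8, 0.38 ± 0.09, FDR = 0.0145 in A17, 0.27 ± 0.09, FDR = 0.0375 in A4 and 0.26 ± 0.09, FDR = 0.0485 in A6. The gene lies on chromosome 8, so A8 is cis and the others trans. After strain means were subtracted, r of Clec4g with other endothelial genes ran from −0.417 (Lyve1) to 0.548 (Fcgr2b). Its r with Kupffer genes ran from −0.06 (Marco) to 0.543 (Clec4f). Fcgr2b was higher in A14 (0.38 ± 0.07, FDR = 3.49e-05) and A8 (0.34 ± 0.08, FDR = 0.000268), at 43.1 ± 2.50 CPM (SD, n = 8) against 34.2 ± 3.86 CPM (SD, n = 20) in B6. Kdr was higher in A5, which carries its own chromosome (0.26 ± 0.05, FDR = 0.000140), and in A14 (0.24 ± 0.05, FDR = 0.000382), and Eng only passed in A14 (0.22).

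Other endothelial genes were lower or moved both ways. Lyve1 was lower in A14 (−0.56 ± 0.18, FDR = 0.0168) and had a negative estimate in all 8 substitutions. Cdh5, the defining cadherin of endothelium, was lower in A4 (−0.16 ± 0.06, FDR = 0.0370) and A17 (−0.19 ± 0.06, FDR = 0.0424), and its cis value in A8 was −0.05 ± 0.06, FDR = 0.598. Stab2 was higher in A10, its own chromosome (0.17 ± 0.05, FDR = 0.0116; 107 ± 7.29 CPM (SD, n = 8) against 90.2 ± 7.18 CPM (SD, n = 20) in B6), and lower in A8 (−0.14 ± 0.05, FDR = 0.0462). Pecam1, Stab1 and Tek had no call, and the cis values were 0.13 ± 0.07, FDR = 0.157 for Stab1 in A14 and 0.03 ± 0.06, FDR = 0.801 for Tek in A4. In A14, which held 5 of the endothelial calls, the median of the class was 0.13.

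The stretch before the Clec4g start is shown because this gene had the most substitution calls of the markers, with that of Marco, which moved the opposite way. Each is the 250 bases before the transcription start of the RefSeq annotation on GRCm38.p6, from 5′ to 3′ on the gene's strand (chr8:3720652-3720901, minus strand for Clec4g and chr1:120505025-120505274, minus strand for Marco). Capitals mark TATAAA, a core promoter motif, searched on both strands from 250 bases before to 50 after the start, where 14.3% of 27025 genes hold it. The Marco window holds none, and neither window holds CCAAT or GAGGAAGT, a spelling of the site of PU.1, a factor of macrophages.
Clec4g: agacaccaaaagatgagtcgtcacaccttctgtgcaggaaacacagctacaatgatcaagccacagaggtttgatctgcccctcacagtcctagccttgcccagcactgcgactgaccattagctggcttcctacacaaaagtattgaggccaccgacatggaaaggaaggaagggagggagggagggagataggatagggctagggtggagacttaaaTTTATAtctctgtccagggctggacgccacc
Marco: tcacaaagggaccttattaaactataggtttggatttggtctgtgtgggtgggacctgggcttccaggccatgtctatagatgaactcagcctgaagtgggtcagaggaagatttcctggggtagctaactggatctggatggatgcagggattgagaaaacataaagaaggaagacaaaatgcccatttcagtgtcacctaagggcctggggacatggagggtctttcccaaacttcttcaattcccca

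Stellate genes moved both ways in the same substitution. In A8 the collagens Col1a1 (−0.80 ± 0.22, FDR = 0.00329), Col3a1 (−0.66 ± 0.16, FDR = 0.000421) and Col1a2 (−0.39 ± 0.12, FDR = 0.00689) were lower while Lrat (0.38 ± 0.09, FDR = 0.000513) and Hgf (0.32) were higher. Col3a1, a fibrillar collagen, stood at 63.7 ± 15.3 CPM (SD, n = 8) in A8 against 85.8 ± 29.5 CPM (SD, n = 20) in B6, with the lowest, median and highest mouse at 36.6, 65.8 and 89.0 and 39.6, 80.5 and 173, so the ranges overlapped. Lrat stood at 26.7, 30.2 and 35.6 in A8 and 14.4, 23.6 and 33.4 in B6. Hgf, at 40.2, 50.8 and 64.5 in A8 and 29.3, 34.7 and 43.5 in B6, overlapped only at the low end of A8.

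Lrat and Hgf were also higher in A14 (0.43 ± 0.08, FDR = 4.87e-05 for Lrat, 0.25 ± 0.08, FDR = 0.0107 for Hgf) and A4 (0.28 ± 0.08, FDR = 0.0173 and 0.22 ± 0.07, FDR = 0.0358). Col1a2 was also lower in A17 (−0.40 ± 0.11, FDR = 0.0335) and in A6, its own chromosome (−0.32 ± 0.11, FDR = 0.0265). Reln was higher in A10 (0.26 ± 0.07, FDR = 0.0168). Des, Dcn, Ecm1 and Pdgfrb had no call. Cis values that did not pass were 0.11 ± 0.08, FDR = 0.393 for Lrat and −0.10 ± 0.08, FDR = 0.501 for Ecm1 in A3, 0.16 ± 0.08, FDR = 0.243 for Hgf and −0.10 ± 0.07, FDR = 0.480 for Reln in A5, and −0.07 ± 0.07, FDR = 0.572 for Dcn in A10.

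Bile duct genes had 1 call, Sox9 in A8 (0.53 ± 0.21, FDR = 0.0489; 3.24 ± 0.799 CPM (SD, n = 8) against 2.88 ± 1.01 CPM (SD, n = 20) in B6). It was lost when any of 13 of the 20 B6 mice was left out. Spp1 in A5 (−0.10 ± 0.15, FDR = 0.785) and Epcam in A17 (−0.10 ± 0.22, FDR = 0.824) are the cis values of this class. Over all classes, 5 of 20 cis tests and 33 of 260 trans tests of markers passed, against 18.4% and 10.7% of cis and trans tests over all genes.

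Of the 38 calls, 27 held with each B6 mouse left out in turn, while no single CSS mouse was left out. Besides Marco in A4 and A10 and Sox9, those lost in at least 1 refit were Hgf, Cdh5 and Clec4g in A4, Clec4g and Col1a2 in A6, Stab2 in A8, and Clec4f and Cdh5 in A17.

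The stretches before 2 of the 3 collagen starts are shown because these genes moved together, with coordinates on GRCm38.p6 (chr6:4505368-4505617, plus strand for Col1a2 and chr1:45311288-45311537, plus strand for Col3a1). Capitals mark CCAAT in Col1a2, a run that 37.5% of the 27025 genes hold on either strand, and TATAAA in Col3a1. Neither window holds the motif of the other. No window is shown for Col1a1. The Col1a2 window lies before the RefSeq start but inside the gene span given above, which begins at chr6:4504814.
Col1a2: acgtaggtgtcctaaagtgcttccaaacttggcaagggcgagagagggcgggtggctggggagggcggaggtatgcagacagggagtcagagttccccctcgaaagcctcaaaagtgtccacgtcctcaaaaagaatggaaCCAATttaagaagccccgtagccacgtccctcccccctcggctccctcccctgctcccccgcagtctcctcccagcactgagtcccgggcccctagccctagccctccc
Col3a1: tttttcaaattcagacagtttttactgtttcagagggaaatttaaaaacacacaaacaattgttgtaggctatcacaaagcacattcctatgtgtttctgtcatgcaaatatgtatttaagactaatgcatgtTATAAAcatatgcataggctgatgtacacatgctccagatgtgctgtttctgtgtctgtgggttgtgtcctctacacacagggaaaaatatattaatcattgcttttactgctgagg

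In a double CSS, the interaction is the log2 difference between the measured level and the sum of both single effects. Over the 15 double CSSs, 41 of the 525 marker tests passed (7.81%), 12 positive and 29 negative, against 5.96% over all genes (3.35% positive and 2.61% negative). They fell in A14:A8 (12 markers, 34.3%; 32.4% of all genes), A6:A8 (8; 24.8%), A14:A4 (5; 4.63%), A14:A10 (5; 4.16%), A17:A8 (5; 8.68%), A14:A5 (4; 4.04%) and A3:A8 (2; 7.56%). None of the other 8 double CSSs had a marker past the threshold in edgeR's test, although 1 to 12 markers in each had an unadjusted p under 0.05; of all genes 0% passed in A3:A5, A6:A5 and A17:A5, 0.0527% in A6:A10, 0.113% in A17:A10, 0.542% in A6:A4, 1.17% in A3:A10 and 1.21% in A17:A4. The B6 and single CSS mice enter both an interaction and the main effects it is measured against, with opposite signs, so the 2 are given side by side and no share of opposite signs is counted as a result.

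**Figure D4:**
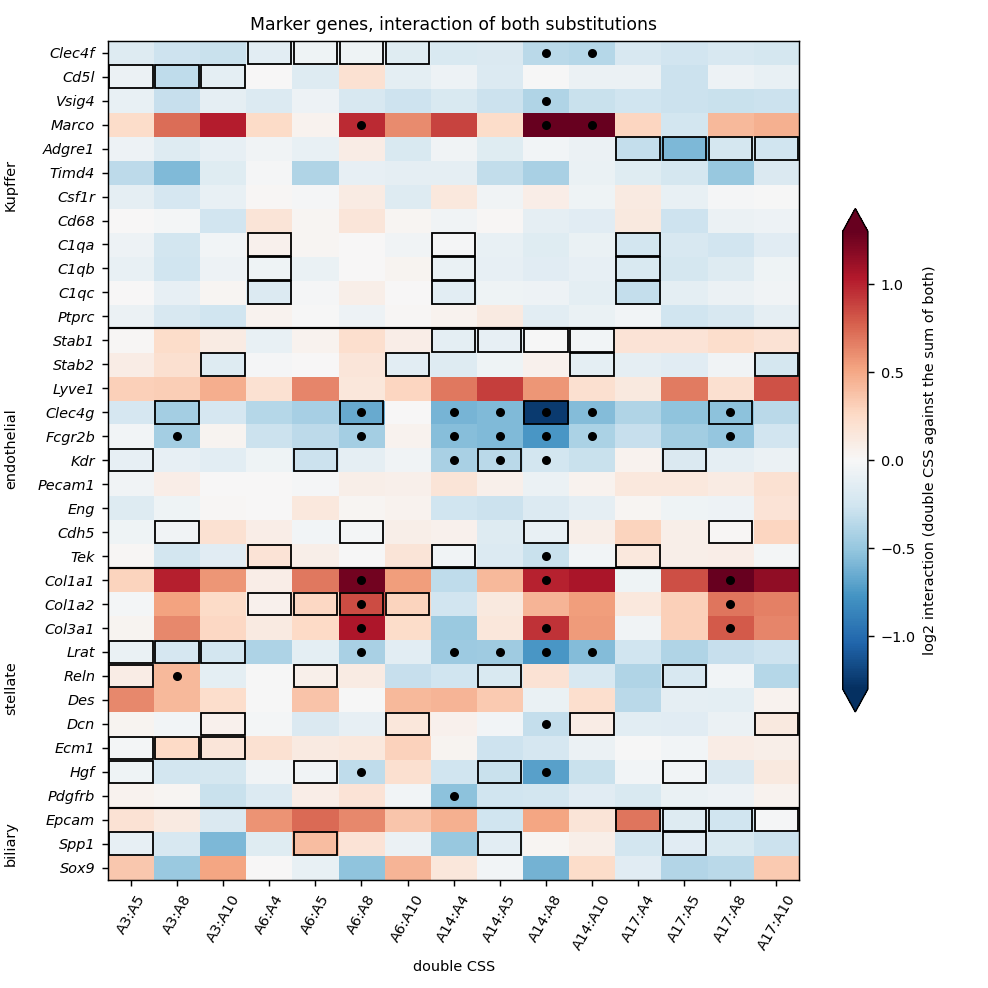
Log2 interaction of each of the 35 marker genes (rows, by class) in the 15 double CSSs (columns), red where the level was above and blue where it was below the sum of both single effects. Dots mark an FDR under 0.05 and boxes mark genes on either substituted chromosome. Dots lie mostly on Clec4g, Fcgr2b and Lrat (blue) and on Marco and the collagens (red), all in crosses with A14 or A8, which also had the largest shares over all genes.

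The endothelial genes had 17 of the calls in 150 tests (11.3%, against 5.96% over all genes), all negative. They fell on Fcgr2b (7), Clec4g (6), Kdr (3) and Tek (1). The estimates of the class were 69 positive and 81 negative. Lyve1 had a positive estimate in all 15 double CSSs (0.13 to 0.90) without a call. Clec4g, higher in both single CSSs, was at 36.8, 37.2, 37.2, 42.7 and 47.7 CPM in the 5 A14:A8 mice, inside the B6 range of 26.3 to 58.7 and under the lowest A8 and A14 mouse. Main effects of 0.66 and 0.54 stood beside an interaction of −1.24 ± 0.16, FDR = 6.18e-10 and a double CSS minus B6 difference of −0.04 ± 0.11, FDR = 0.866. Clec4g was also below the sum in A6:A8 (−0.65 ± 0.15, FDR = 0.000599), A14:A4 (−0.60 ± 0.16, FDR = 0.0182), A14:A5 (−0.58 ± 0.16, FDR = 0.0225), A14:A10 (−0.56 ± 0.16, FDR = 0.0311) and A17:A8 (−0.53 ± 0.16, FDR = 0.0242).

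Fcgr2b had the most interactions of the markers, in 7 double CSSs. The 5 A14:A8 mice were at 27.7, 28.3, 32.2, 36.5 and 39.2 CPM, against 34.9 to 53.4 in A14 and 39.2 to 45.6 in A8, so 4 of the 5 lay below every A8 mouse. The value was −0.76 ± 0.13, FDR = 6.12e-07 in A14:A8, and in the other 6 it ran from −0.57 in A14:A5 to −0.41 in A14:A10. With 1 mouse of the cross left out, the A14:A10 call was lost in 4 of 5 refits and the A3:A8 call in 1 of 3. Kdr was below the sum in A14:A4 (−0.42 ± 0.09, FDR = 0.00372), A14:A5 (−0.35 ± 0.09, FDR = 0.0155) and A14:A8 (−0.24), and Tek, with no main effect called, in A14:A8 (−0.29).

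Stellate genes had 18 calls in 150 tests (12%), 9 in each direction. Lrat was below the sum in 5 double CSSs and Hgf in 2. In A14:A8, Lrat stood at 18.3, 19.3, 20.6, 26.4 and 28.3 CPM in the 5 mice (A14 23.7 to 45.7, A8 26.7 to 35.6), with an interaction of −0.76 ± 0.15, FDR = 1.35e-05. Hgf stood at 29.1, 29.7, 32.6, 34.0 and 38.3 there (A14 36.3 to 61.9, A8 40.2 to 64.5), with −0.71 ± 0.13, FDR = 5.92e-06, and every A14:A8 mouse lay below every A8 mouse. Dcn was below the sum in A14:A8 (−0.31), Pdgfrb in A14:A4 (−0.53), and Reln was above it in A3:A8 (0.42 ± 0.13, FDR = 0.0334; 88.8, 102 and 112 CPM in 3 mice).

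The collagens were above the sum in crosses with A8. In A6:A8 the interactions were 1.26 ± 0.33, FDR = 0.00237 for Col1a1, 1.05 ± 0.23, FDR = 0.000284 for Col3a1 and 0.85 ± 0.18, FDR = 9.15e-05 for Col1a2. The lowest, median and highest of the 6 mice were 3.26, 5.44 and 20.3 CPM for Col1a1 and 68.4, 74.0 and 179.7 for Col3a1, and 1 mouse held the highest value of both. Without that mouse all 3 genes passed, with FDRs of 0.0455 for Col1a1, 0.00230 for Col3a1 and 0.00183 for Col1a2, and over all refits Col1a1 ranged from 0.90 to 1.42. In A17:A8 they were 1.31 ± 0.37, FDR = 0.0166, 0.80 ± 0.25, FDR = 0.0282 and 0.70 ± 0.19, FDR = 0.0119, with Col1a1 at 4.11, 4.97, 5.75, 5.83 and 9.55 CPM. In A14:A8 Col1a1 (1.001 ± 0.36, FDR = 0.0216) and Col3a1 (0.94 ± 0.24, FDR = 0.00116) passed. Beside these, the main effects of Col1a1 were −0.80 in A8, −0.40 in A6, −0.71 in A17 and −0.48 in A14, of which A8 alone passed, and the double CSS minus B6 differences were 0.05, −0.20 and −0.28 in that order.

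**Figure D5:**
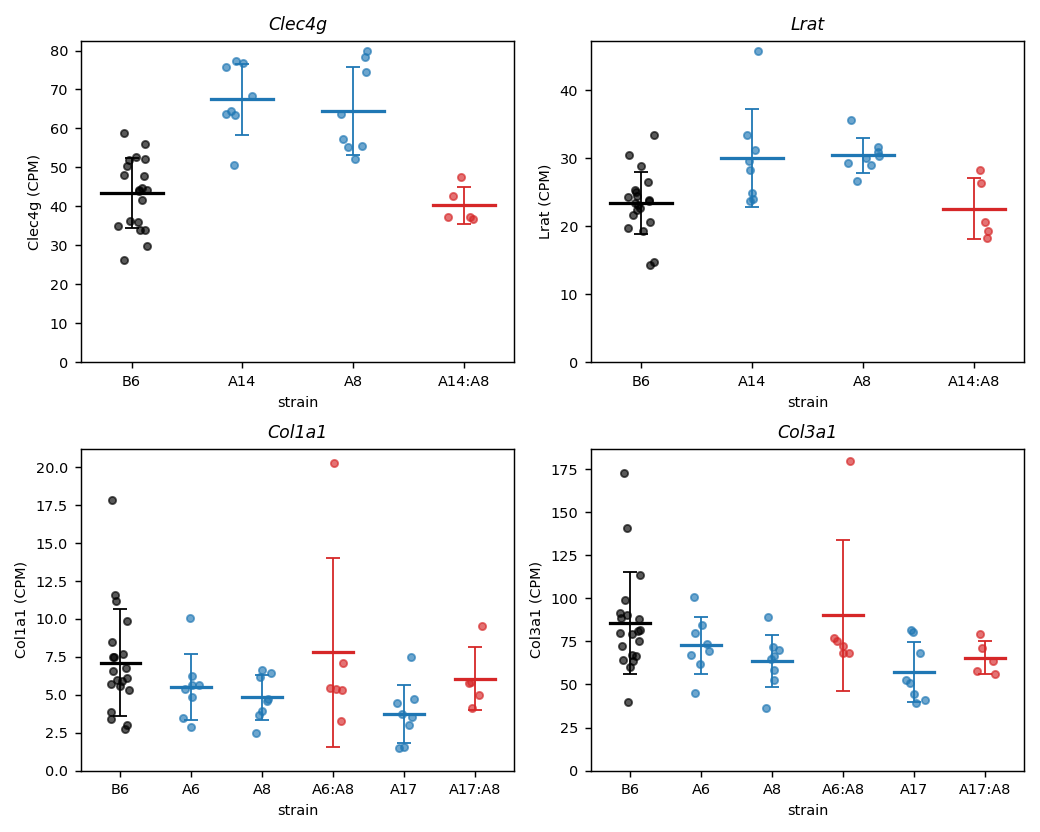
CPM per mouse (points, with mean and SD) of Clec4g and Lrat in B6, A14, A8 and A14:A8, and of Col1a1 and Col3a1 in B6, A6, A8, A6:A8, A17 and A17:A8 (black B6, blue single CSS, red double CSS; axes from 0). Clec4g is higher in A14 and A8 and within the B6 range in A14:A8, and 1 A6:A8 mouse holds the highest Col1a1 and Col3a1 of its group.

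Kupffer genes had 6 interaction calls in 180 tests (3.33%, against 5.96% over all genes). Marco was above the sum in A14:A10 (1.4996 ± 0.39, FDR = 0.0154), A14:A8 (1.40 ± 0.39, FDR = 0.00244) and A6:A8 (0.97 ± 0.37, FDR = 0.0419). The 5 A14:A10 mice stood at 18.7, 18.7, 19.2, 20.9 and 58.7 CPM, and without replicate 2 the call was lost (FDR = 0.0855). In A6:A8 the Marco call was lost in 4 of 6 refits that left out a mouse. The 5 A14:A8 mice stood at 12.4, 14.04, 14.6, 18.1 and 30.8. Clec4f was below the sum in A14:A10 (−0.37 ± 0.11, FDR = 0.0385) and A14:A8 (−0.35 ± 0.11, FDR = 0.00813; 90.4, 95.1, 95.4, 102 and 104 CPM in 5 mice), and Vsig4 in A14:A8 (−0.39 ± 0.13, FDR = 0.0142). The C1q genes, Cd5l, Csf1r, Cd68, Adgre1, Timd4 and Ptprc had no call, nor did any bile duct gene.

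Of the 41 interactions, 21 held with each double CSS mouse left out in turn, among them those of Clec4g and Fcgr2b in A14:A8 and A6:A8, Lrat and Hgf in A14:A8, and all 3 collagens in A6:A8. Those on A14:A4 numbered 5 with all 5 mice and 3 (Clec4g, Fcgr2b and Kdr) without the mouse that lacked Y-linked counts. All 41 interactions lay in crosses with A8 or A14. Those crosses also had the most calls over all genes, with 4.04% to 32.4% passing, against 0% to 1.21% in the other double CSSs. No B6 or single CSS mouse was left out of the interaction refits.

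Set directly against B6, the double CSSs gave 32 calls in 525 marker tests (6.10%), 18 higher and 14 lower, against 3.98% over all genes (2.15% higher and 1.83% lower). A3:A5 and A14:A4 gave 9 each (13.5% and 13.9% of all genes), A6:A4 and A17:A8 3 each (4.82% and 6.06%), A6:A5, A14:A5 and A17:A5 2 each (2.42%, 1.53% and 1.44%) and A6:A8 and A17:A4 1 each (2.25% and 4.15%). A14:A8, with the most interactions, had none in edgeR's test, where 4.82% of all genes passed and 5 markers had an unadjusted p under 0.05. Nor was a marker called in A3:A8 (1.88% of all genes), A3:A10 (0.798%), A6:A10 (0.978%), A14:A10 (0.527%) or A17:A10 (0.602%), where 1 to 12 markers had an unadjusted p under 0.05.

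Clec4f was higher than B6 in 5 double CSSs, most in A6:A4 (0.41 ± 0.07, FDR = 2.49e-06; 99.1, 109, 131.7, 143 and 159 CPM). Marco was lower in 6, most in A14:A5 (−1.41 ± 0.29, FDR = 0.00308; 6.35, 6.92, 6.98, 11.2 and 16.7 CPM) and A17:A5 (−1.39 ± 0.29, FDR = 0.00481; 4.67, 11.1, 11.4, 11.6 and 11.9). Of these 6 Marco calls, only that of A14:A5 held with each double CSS mouse left out in turn. No B6 mouse was left out of the comparisons with B6, so their dependence on the highest B6 mice for Marco was not tested. Adgre1, a cis gene there, was lower in A17:A5 (−0.44 ± 0.12, FDR = 0.00552). In A3:A5, 5 endothelial genes (Stab2, Clec4g, Fcgr2b, Kdr and Tek, 0.19 to 0.34) and 3 stellate genes (Des 0.64 ± 0.16, FDR = 0.00273, Hgf 0.32 ± 0.09, FDR = 0.00442 and Lrat 0.29) were higher and Marco was lower (−0.86). With 1 mouse of A3:A5 left out, 2 to 9 markers passed. In A14:A4, Clec4f (0.32), Vsig4 (0.32), C1qa (0.20), Clec4g (0.32) and Des (0.44) were higher and Col3a1 (−0.81 ± 0.17, FDR = 0.000471), Spp1 (−0.49), Reln (−0.27) and Stab2 (−0.22) lower; without the mouse that lacked Y-linked counts, Clec4f, Vsig4, Col3a1, Reln and Stab2 still passed.

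The remaining calls against B6 were few. Marco was lower in A6:A5 (−1.31), A17:A8 (−1.14) and A6:A4 (−0.997), and Pecam1 in A6:A4 (−0.23). Reln was lower in A14:A5 (−0.35). In A17:A8 Clec4g was higher (0.39) and Cdh5 lower (−0.22).

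Further genes of each cell type were counted from lists of names. Of all genes 22.5% passed in A14, 29.6% in A8 and 32.4% in A14:A8, beside which these counts are to be read. Of 19 further endothelial genes, 10 were higher and none lower in A14, 8 were higher and 1 lower in A8, 1 was higher and 4 lower in A4, 3 were lower in A17, 2 were lower in A6, 1 was higher in A3, and none passed in A5 or A10. In A14:A8, 9 were below the sum, with Ptprb, a receptor phosphatase of endothelium, at 0.17 ± 0.05 in A14 and −0.27 ± 0.09 in A14:A8. Of 20 further stellate genes, 4 were higher and 6 lower in A8, 5 higher and 6 lower in A14, 4 lower in A17, 3 lower in A6 and 1 lower in A10, and none passed in A3, A4 and A5. Cxcl12, a chemokine, was higher (0.23) and Sparc, a matrix protein, lower (−0.27) in A8. Of 16 further Kupffer and macrophage genes, none passed in A8 (median 0.02), 2 were higher in A14 (median 0.09) and in A17 and 1 in A3, and none passed in the others; the iron exporter Slc40a1 stood at −0.02 and −0.03. Of 7 further bile duct genes, none passed in A8 or A14.

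Genes of hepatocytes were counted in the same way. Of 12 hepatocyte genes, 9 were lower in A8 (29.6% of all genes passed) and 7 in A14 (22.5%), with none higher there. In the other substitutions 3 were lower in A3, 1 lower in A4, 1 higher and 2 lower in A6, and 1 higher in A10 and in A17. The plasma protein genes Alb (−0.48 in A8, −0.40 in A14) and Ahsg (−0.50 and −0.39) were among those lower in both. The 12 genes summed to 59389 to 115425 CPM in A8 and 65601 to 134688 in A14, against 107009 to 168525 in B6, and 103707 to 132823 in A14:A8, where 7 of the 12 were above the sum of both effects and none below (32.4% of all genes passed). In A6:A8, 8 of the 12 were above the sum (24.8%). Their part in the marker results was not tested.

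Genes of blood cells and of tissues next to the liver were counted as well. The 1 T and NK cell gene, the 5 B cell genes, the 2 neutrophil genes and the 2 mesothelial genes in the table had no call in any substitution or interaction, and their summed levels in B6 were 0.972 to 3.52, 8.19 to 16.7, 0.563 to 14.3 and 0.843 to 4.10 CPM. Erythroid genes summed to 111 to 741 CPM in B6, with 1 of 6 higher in A4, 1 lower in A14, 2 above the sum in A14:A8 and 1 below it in A14:A4. The 1 pancreas gene in the table, the elastase Cela1, was at 3.27 to 6.43 CPM in B6 and 5.14 to 8.30 in A8, higher in A8 (0.62), A14 (0.56) and A17 (0.51) and below the sum in 6 crosses. Other pancreas genes, adipocyte genes and 6 of the 7 T and NK cell genes, Cd3e among them, were not analysed here. The part of these cells in the marker results was not tested.

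The surrogate variables bear on the Kupffer markers above all. They took up a median of 44.7% of the variance of a Kupffer marker within strains (21.6% for Marco to 55.5% for C1qa), against 21.4% for all genes, 28.7% for stellate, 20.8% for endothelial and 15.8% for bile duct markers. Without them, 16 of 96 Kupffer tests passed in the substitutions, 13 higher and 3 lower, in place of 10, and 25 of 180 interactions, 24 of them negative, in place of 6. Over all genes the shares without them were 13.4% and 8.88%. In A17, C1qa (0.26), C1qb (0.24) and Vsig4 (0.30) were then higher along with Clec4f (0.29). Col1a1 (−0.94), Col3a1 (−0.58) and Cdh5 (−0.30) were lower there. In A17:A8, 9 of the 12 Kupffer genes were then below the sum, from −0.48 for Ptprc to −0.83 for Timd4. Of 13254 genes other than the markers, 1717 passed in A17 and 3289 (24.8%) in A17:A8 without surrogate variables, in either direction. C1qa stood at 34.5, 40.1 and 68.7 CPM in A17 (lowest, median and highest of 8 mice), with the highest above every B6 mouse (30.7, 36.5 and 47.6).

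The same effects were then fitted with a score for each of the 4 classes, the mean log2 CPM of its members in a mouse, in place of the surrogate variables, counting all genes but the markers. In the substitutions 13.4% of 106032 tests passed with no covariate, 12% with the 4 scores, 11.1% with 5 surrogate variables and 9.59% with both. In the interactions the shares of 198810 tests were 8.87%, 6.59%, 5.95% and 4.29%. Of the tests that passed with no covariate, 80.4% of the substitutions and 69.6% of the interactions also passed with the scores. Among the substitutions the count fell most in A17, from 1717 genes with no covariate to 358 with the scores, and little in A8, from 5352 to 5180, while it rose in A4, from 1365 to 1568. The scores were made from the same libraries and can carry strain effects and library differences as well as cell number, and their shares cannot be told apart.

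With 10 surrogate variables in place of 5, 14 of the 38 substitution calls and 7 of the 41 interactions remained. Over all genes the calls fell from 11765 to 4519 of 106312 substitution tests and from 11879 to 2443 of 199335 interaction tests. The substitution calls that remained were those of Clec4f and Lrat in A4, Kdr in A5, Clec4f in A6, Marco, Hgf and Clec4g in A8, Stab2 and Reln in A10, and Marco, Fcgr2b, Lrat, Kdr and Clec4g in A14. The interactions were those of Kdr in A14:A4, Fcgr2b in A14:A5, and Marco, Fcgr2b, Lrat, Hgf and Clec4g in A14:A8, the last at −0.85. All 38 and all 41 estimates kept their sign. The collagen calls were not among those that remained: in A8 Col3a1 stood at −0.38 (FDR = 0.104) and in A6:A8 at 0.63 (FDR = 0.131).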

How the data were processed

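Total RNA from the caudate liver lobe of 154 mice was sequenced as stranded, single-end libraries. According to the methods of the study, the authors aligned reads with TopHat2 to the mouse genome mm10 with GENCODE vM7, aligned the remaining reads to a genome carrying A/J variants, removed duplicates, and deposited raw read counts per gene from HTSeq-count after removing genes of low count. Reads from A/J alleles that align less well would lower counts of genes on a substituted chromosome. The study reported that the share of mapped reads did not differ significantly between B6 and any CSS, genome-wide or for the substituted chromosome alone. Single genes were not compared in that way, so cis values carry that limit. Sequencing runs are not named in the labels and could not be fitted as batches.

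Genes and chromosomes were assigned by Ensembl identifier from a later GENCODE release on the same build (GRCm38); 47 of 13289 genes had no position and were counted as trans. Counts were normalized by TMM in edgeR 4.0.16 (R 4.3.3), with 5 surrogate variables from svaseq (sva 3.50.0), and fitted with 8 substitution effects and 15 interactions; the quasi-likelihood F-test was used for each effect, for all strains jointly and for each double CSS minus B6. P-values were adjusted by Benjamini-Hochberg within each effect, separately for genes on and off the substituted chromosomes, over all genes, with a threshold of 0.05. Levels are TMM-scaled CPM; correlations used log2 CPM with a prior count of 2. DESeq2 1.42.0, other numbers of surrogate variables, a count minimum of 15 in 75% of mice and the removal of single mice were tried as alternatives. The fit was tested on simulated counts. Within a class and effect, at most 4 genes are given in full, and genes on a substituted chromosome are named whether or not they passed. The markers and lists were chosen with earlier results of these data known. Libraries held 4638701 to 30465477 counts; reads without molecular identifiers are not independent molecules. Promoter windows came from RefSeq (GRCm38.p6) and were held for 25 of the 35 markers. Mice were grouped by the strain in their labels, 1 mouse whose label lacks the F1 mark included with its cross.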

Additional observations from a re-analysis of the deposited data

Results flagged for a closer look

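Each of the 41 interactions is a test that the effect of 1 substitution differed in mice that also carried the other, and each is given here as log2. In A14:A8 the interactions were −1.24 for Clec4g, −0.76 for Lrat, −0.76 for Fcgr2b, −0.71 for Hgf, −0.39 for Vsig4, −0.35 for Clec4f, −0.31 for Dcn, −0.29 for Tek, −0.24 for Kdr, 1.40 for Marco, 1.001 for Col1a1 and 0.94 for Col3a1. In A6:A8 the interactions were −0.65 for Clec4g, −0.44 for Fcgr2b, −0.42 for Lrat, −0.33 for Hgf, 1.26 for Col1a1, 1.05 for Col3a1, 0.97 for Marco and 0.85 for Col1a2. In A17:A8 the interactions were −0.53 for Clec4g, −0.50 for Fcgr2b, 1.31 for Col1a1, 0.80 for Col3a1 and 0.70 for Col1a2. In A14:A10 the interactions were −0.57 for Lrat, −0.56 for Clec4g, −0.41 for Fcgr2b, −0.37 for Clec4f and 1.4996 for Marco. In A14:A4 the interactions were −0.60 for Clec4g, −0.56 for Fcgr2b, −0.53 for Pdgfrb, −0.47 for Lrat and −0.42 for Kdr. In A14:A5 the interactions were −0.58 for Clec4g, −0.57 for Fcgr2b, −0.46 for Lrat and −0.35 for Kdr. In A3:A8 the interactions were −0.44 for Fcgr2b and 0.42 for Reln. The 8 double CSSs not named here had none past the threshold in edgeR's test.

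A mouse stood apart from the others of its group in 6 of the 32 levels tested, where chance flags about 1 in 20. The highest mouse was 20.3 CPM for Col1a1 and 179.7 for Col3a1 in A6:A8, the same mouse, 45.7 for Lrat in A14, 58.7 for Marco in A14:A10 and 34.9 for Marco in A8. The lowest mouse was 4.67 for Marco in A17:A5.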

How the results depend on the processing

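With the markers' calls counted over all effects (38 in the substitutions, 41 interactions, 32 double CSS minus B6, 24 in the joint test), the number of surrogate variables and the threshold were the settings that moved counts by over 1.5 times. With 10 of them, 15 substitution calls and 7 interactions passed (4.25% and 1.23% of tests over all genes), and with none 43 and 53 (13.4% and 8.88%, against 11.1% and 5.96% with 5), of which 27 and 27 were calls with 5 as well. The joint test passed 19 markers with 10 and 23 with none, and the comparison with B6 28 and 22. An FDR under 0.01 left 18 substitution calls, 16 interactions, 14 calls against B6 (5.58%, 2.97% and 1.61% of tests over all genes) and 15 in the joint test. Under the other settings tried (DESeq2's size factors or Wald test, edgeR's newer dispersion fit, cis and trans genes adjusted together, the filter on low counts, and fits without the double CSS mice or without the mouse that lacked Y-linked counts), the counts stayed within 1.5 times: 31 to 38 substitution calls, 29 to 42 interactions, 23 to 26 in the joint test and 31 to 42 against B6. No call changed sign under a setting in which its gene was fitted. The filter on low counts kept 26 of the 38 and 24 of the 41 calls. The cause of these shifts was not tested.

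Leaving out 1 mouse at a time gave 30 to 41 substitution calls (each of 20 B6 mice), 38 to 42 interactions and 25 to 33 calls against B6 (each of 71 double CSS mice), and 27 of 38, 21 of 41 and 10 of 32 calls held in every refit. In these refits the surrogate variables and dispersions of all mice were kept, and no single CSS mouse was left out. In A3:A8, of 3 mice, 0 to 2 of the interaction calls passed, in A17:A8 0 to 4 calls against B6, in A6:A5 0 to 2 and in A14:A4 4 to 10.

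Of the 9 marker pairs in B6, 2 passed by r, against 7 with CPM scaled to the total count and 7 over all 154 mice after subtraction of strain means. Genes other than the markers passed in 11727 substitution tests and 11838 interaction tests with 5 surrogate variables, in 14209 and 17638 with no covariate, in 12750 and 13104 with the 4 scores and in 10166 and 8531 with both. No paired analysis was possible because mouse numbers are unique and replicate numbers only follow the order of the samples. The depth of the libraries limits Epcam, Sox9 and Des, with few reads in some mice. DESeq2 gave no value for the joint test, which was not run there.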
